A study of Homo sapiens with 6 samples.

Results

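MET and 9 other receptor tyrosine kinases (MST1R, AXL, EPHA2, IGF1R, INSR, FGFR1, FGFR2, FGFR3 and DDR1) were followed in BxPC-3, a human cell line established from a pancreatic adenocarcinoma. The 10 genes were taken by symbol from the 26255 symbols of the deposited tables, and each was found once in every library. The RNA-seq data comprised 3 groups of 2 libraries each: Parent (no treatment), NC-1 (negative control treatment) and miR-4711-5p (miRNA treatment). All 3 used the same cell line, unmodified but for the treatment, and a single time point, 36 h. Neither the labels nor the methods state that the 2 libraries of a group came from separate cultures, so p-values here measure the spread between these libraries, which may be technical.

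Receptor tyrosine kinases span the cell membrane. An extracellular ligand brings receptors together, their kinase domains phosphorylate each other on tyrosine, and adaptor proteins then dock on the phosphotyrosines and relay the signal to the RAS-ERK and PI3K-AKT pathways. MET, the receptor of hepatocyte growth factor, drives scattering and invasive growth of epithelial cells and is a known oncogene in pancreatic and other carcinomas. A miRNA pairs through its seed, bases 2 to 8, with complementary sites in mRNAs, mostly in the 3′ UTR, and lowers their stability and translation. The study singled out MET as a candidate target of miR-4711-5p partly by its decrease in these same libraries and by a seed site in its mRNA. Its levels with miR-4711-5p and its sites are therefore given as a description. MET entered the fit over all genes, so the main counts of calls with miR-4711-5p are given both without and with it. Other counts over the receptors include MET. Its own calls with miR-4711-5p are not read as evidence. Apart from these libraries, the study also reported lower MET mRNA by qPCR in its pancreatic cancer cells, with technical replicates.

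The treatment was a duplex whose sense strand is the mature miR-4711-5p. The sequence is shown because its seed defines the sites of this strand given below. The sequence was taken from RefSeq on GRCh38.p14, chr1:59733269-59733291 on the minus strand. Capitals mark the seed.

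miR-4711-5p: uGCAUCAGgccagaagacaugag

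Sites were searched in the sense direction of the spliced transcripts of GENCODE v44 lifted to GRCh37, the same build as the hg19 of the deposited files. A 7mer-m8 site is CTGATGC, a 7mer-A1 site is TGATGCA, an 8mer is CTGATGCA and a 6mer is TGATGC, and each site was counted once as its longest form. The following stretches show the longest 3′ UTR site of MET and of DDR1 and the 8mers of EPHA2, genes which differed in how their mRNA levels changed. Capitals mark the site, and flanks are as annotated.

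MET, 7mer-A1 in the 3′ UTR, chr7:116438424-116438430, plus strand, exon 21: ttaaagtaaagTGATGCAa

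DDR1, 7mer-m8 in the 3′ UTR, chr6:30867234-30867240, plus strand, exon 18: cacccagggagCTGATGCcccttctcccc

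EPHA2, 8mer in the coding sequence, chr1:16475036-16475043, minus strand, exon 3: catcgccggctCTGATGCAccttccctggc

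EPHA2, 8mer in the coding sequence, chr1:16475529-16475536, minus strand, exon 3: aagggtgggacCTGATGCAgaacatcatga

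The MET site lay at the very end of its 3′ UTR, at position 2246 of 2253 nt with 1 nt after it. MET also held 6mers at positions 998 and 1398 of the same 3′ UTR. The DDR1 site lay at position 161 of 860 nt, in 9 of the 43 coding transcripts of the gene.

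Values are FPKM, a density of sequenced fragments scaled by transcript length and by library size, so that levels can be compared between genes. The depth in reads is unknown. The smallest steps between low values gave a rough relative depth of 0.751 to 1.21 with Parent 1 set to 1, so the miR-4711-5p libraries, at 1.08 and 1.21, were the deepest. FPKM summed to between 493145 and 550772 per library, lowest in both miR-4711-5p libraries. The epithelial identity markers (EPCAM, KRT7, KRT8, KRT18, KRT19, CDH1, CLDN4 and MUC1) were all present, and summed to between 5399 and 6397 FPKM per library. The fibroblast markers summed to at most 0.270 FPKM and the blood cell markers to at most 1.30 FPKM in any library, with no gene of either list past the filter below. The endothelial markers summed to 1.42 and 1.35 FPKM in Parent, 3.57 and 3.25 FPKM in NC-1 and 0.775 and 0.663 FPKM in miR-4711-5p, and CDH5 was their single tested gene.

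A gene was tested if its mean over the 6 libraries reached 1 FPKM. The test was made on log2(FPKM + 1) with limma, and a difference was called where its Benjamini-Hochberg adjusted p was under 0.05. Of the 10 receptors, 9 passed this filter, and INSR did not. Of the 8 tested receptors other than MET, 3 fell and 3 rose with miR-4711-5p against Parent, while 24.7% of all 12040 genes tested fell and 18.7% rose. Against NC-1, 3 of the 8 fell and 0 rose, beside 21.2% and 18.4% of all genes. With MET counted, 4 of 9 were lower in each comparison. NC-1 itself differed from Parent in 2 of the 9 receptors, both higher, while 12.1% of all genes were called higher and 15.1% lower. The median log2 fold change of the 9 was -0.06 against Parent and -0.06 against NC-1, beside -0.01 and 0.00 over all genes. Without MET the medians were -0.02 and -0.00. The comparisons share libraries and are not independent of each other. In bulk RNA, fewer cells carrying a transcript and less of it per cell cannot be told apart.

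**Figure D1:**
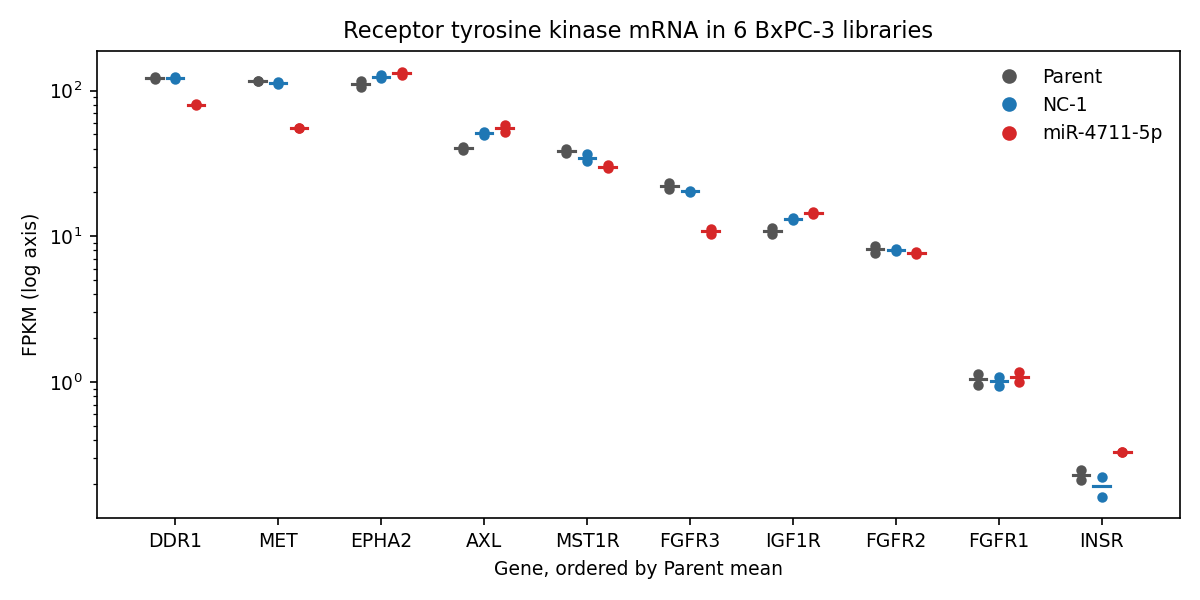
FPKM of the 10 receptors on a log axis, with 1 point per library, a short bar at the mean of each group of 2 libraries, and genes ordered by their Parent mean. DDR1, MET, FGFR3 and MST1R are lower in both miR-4711-5p libraries than in the 4 control libraries, and AXL, EPHA2 and IGF1R are higher.

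MET, on the plus strand at chr7:116312250-116438431 with 21 exons, was among the most abundant of the receptors in control cells. Its level was 115.4 and 116.7 FPKM in Parent, 115.3 and 110.7 FPKM in NC-1, and 55.1 and 55.0 FPKM in miR-4711-5p. Both miR-4711-5p libraries were far below the 4 control libraries, which lay within 6 FPKM of each other. The fold change of the group means was -2.11 against Parent and -2.05 against NC-1, where a minus sign marks a decrease. On the log2 scale the differences were -1.06 and -1.02. Ordered from the largest decrease, MET stood at place 132 of 12040 genes against Parent and at place 182 against NC-1. The difference between NC-1 and Parent was -0.04 (95% CI -0.14 to 0.06, limma adjusted p = 0.526).

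MST1R encodes RON, the receptor of macrophage-stimulating protein and the closest relative of MET, and lies on the minus strand at chr3:49924435-49941306. It was measured at 39.8 and 37.5 FPKM in Parent, 32.6 and 36.5 FPKM in NC-1, and 30.6 and 29.3 FPKM in miR-4711-5p. The groups did not overlap, but the NC-1 libraries spanned most of the distance between the other groups. The log2 fold change was -0.36 against Parent (SE 0.07, limma adjusted p = 0.0045) and -0.20 against NC-1 (SE 0.07, limma adjusted p = 0.0484). The call against NC-1 was held in 4 of 14 alternative analyses (limma adjusted p from 0.0270 to 0.220), and was lost without either Parent replicate, without either miR-4711-5p replicate and without NC-1 replicate 2, where the log2 fold change was -0.12. The call against Parent was held in 13 of 14 (limma adjusted p from 0.00258 to 0.0668). As a description, the ratio of MET to MST1R within each library was 2.90 to 3.53 in the 4 control libraries and 1.80 and 1.88 with miR-4711-5p.

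FGFR3, on the plus strand at chr4:1795020-1810594, is 1 of 3 FGF receptors in the set. Its level was 23.4 and 21.0 FPKM in Parent, 20.1 and 20.6 FPKM in NC-1, and 10.4 and 11.2 FPKM in miR-4711-5p. Both treated libraries were well below all controls. The log2 fold change was -0.97 against Parent (SE 0.07, limma adjusted p = 5.78e-05) and -0.85 against NC-1 (SE 0.07, limma adjusted p = 0.000125), at places 192 and 280 from the largest decrease. FGFR3 was called in both comparisons in all 14 alternative analyses. The other FGF receptors did not pass the test. FGFR2 was measured at 7.65 and 8.59 FPKM in Parent, 7.98 and 8.18 FPKM in NC-1 and 7.61 and 7.81 FPKM in miR-4711-5p, and the groups overlapped except that both treated libraries were just below NC-1. Its log2 fold change of -0.06 against Parent had a 95% CI of -0.23 to 0.10. FGFR1, at 0.944 to 1.18 FPKM over the 6 libraries, was close to the filter, and its log2 fold change of 0.03 against Parent had a 95% CI of -0.27 to 0.33. The ratio of FGFR3 to FGFR2 fell from 2.44 to 3.05 in the control libraries to 1.37 and 1.44 with miR-4711-5p.

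DDR1, a receptor activated by collagen, lies on the plus strand at chr6:30852296-30867933. It was the most abundant of the 10 in Parent, at 124.8 and 120.9 FPKM. NC-1 gave almost the same level, 120.9 and 124.4 FPKM, and miR-4711-5p gave 79.5 and 80.8 FPKM. Both treated libraries were lower than every control library, and the controls of the 2 groups overlapped. The log2 fold change was -0.61 against Parent (SE 0.04, limma adjusted p = 5.15e-05) and -0.61 against NC-1 (SE 0.04, limma adjusted p = 6.15e-05), and both calls were held in all 14 alternatives. DDR1 did not differ detectably between NC-1 and Parent (log2 fold change -0.00, 95% CI -0.10 to 0.10).

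AXL, a receptor for GAS6 often tied to mesenchymal-like and drug-resistant tumour cells, lies on the plus strand at chr19:41725128-41767671. Its level was 40.9 and 39.2 FPKM in Parent, 51.9 and 49.9 FPKM in NC-1, and 57.7 and 52.1 FPKM in miR-4711-5p. NC-1 was thus already above Parent, and the lower miR-4711-5p library was next to the higher NC-1 library. The log2 fold change was 0.44 against Parent (SE 0.06, limma adjusted p = 0.00118), 0.11 against NC-1 (SE 0.06, limma adjusted p = 0.206), and 0.34 for NC-1 against Parent (SE 0.06, limma adjusted p = 0.00832). The call between NC-1 and Parent was held in 12 of 14 alternatives. It was lost without NC-1 replicate 1 and with no filter on low values (limma adjusted p = 0.0945 with no filter).

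IGF1R, the receptor of the insulin-like growth factors, lies on the plus strand at chr15:99191768-99507759 and had the same order of groups as AXL. It was measured at 11.4 and 10.4 FPKM in Parent, 13.4 and 13.0 FPKM in NC-1, and 14.6 and 14.2 FPKM in miR-4711-5p. The log2 fold change was 0.37 against Parent (SE 0.06, limma adjusted p = 0.00284), 0.12 against NC-1 (95% CI -0.03 to 0.26, limma adjusted p = 0.178) and 0.26 for NC-1 against Parent (SE 0.06, limma adjusted p = 0.0230). The last of these was held in 7 of 14 alternatives, and was lost without Parent replicate 2, without either NC-1 replicate and without either miR-4711-5p replicate (limma adjusted p from 0.0521 to 0.108). INSR, the related insulin receptor, was barely detected, at 0.211 and 0.250 FPKM in Parent, 0.163 and 0.223 FPKM in NC-1, and 0.328 and 0.333 FPKM in miR-4711-5p. Both treated libraries were above the controls, but at this level INSR was not tested.

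EPHA2, a receptor of membrane-bound ephrin-A ligands on neighbouring cells, lies on the minus strand at chr1:16450832-16482564. Its level was 115.4 and 105.2 FPKM in Parent, 121.7 and 127.9 FPKM in NC-1, and 134.1 and 128.4 FPKM in miR-4711-5p. The lower treated library and the higher NC-1 library were less than 1 FPKM apart. The log2 fold change was 0.25 against Parent (SE 0.06, limma adjusted p = 0.0114), 0.07 against NC-1 (95% CI -0.06 to 0.21, limma adjusted p = 0.353) and 0.18 for NC-1 against Parent (SE 0.06, limma adjusted p = 0.0571). The call against Parent was lost without Parent replicate 2 (log2 fold change 0.18, limma adjusted p = 0.0576) and without miR-4711-5p replicate 1 (log2 fold change 0.22, limma adjusted p = 0.0856), and with no filter on low values (limma adjusted p = 0.102).

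**Figure D2:**
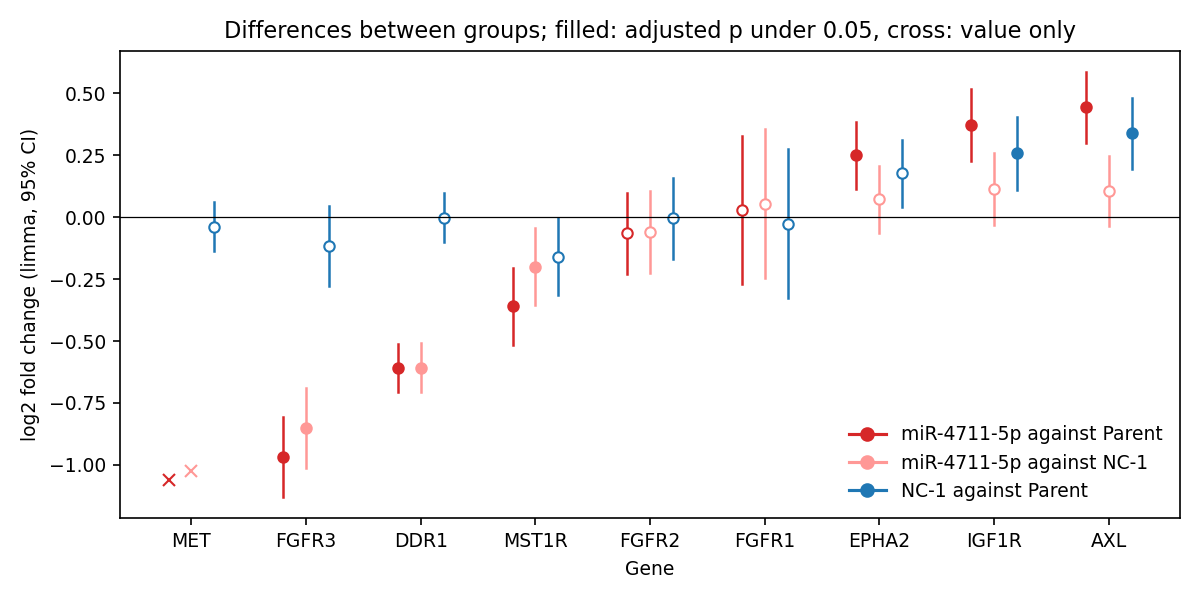
Log2 fold changes on the log2(FPKM + 1) scale from limma, with 95% confidence intervals as vertical lines, for the 9 tested receptors in the 3 comparisons. Filled points have an adjusted p under 0.05, and crosses mark MET against Parent and NC-1, given as values only. MET, FGFR3, DDR1 and MST1R lie below 0 against both controls, while for AXL, IGF1R and EPHA2 the point against NC-1 is near 0 and the NC-1 point is above 0.

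The receptors therefore fell into 3 patterns. MET, FGFR3 and DDR1 each had similar levels in Parent and NC-1 and were lower with miR-4711-5p. MST1R was also lower against both, by less, but its NC-1 libraries lay between the other groups and its call against NC-1 was seldom held. AXL, IGF1R and EPHA2 rose against Parent without passing the test against NC-1. FGFR2 and FGFR1 passed no test. A direct test of whether one receptor changed more than another was not run.

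The makeup of receptor mRNA in the cells shifted with these changes. The 10 receptors summed to 480.0 and 460.6 FPKM in Parent, 485.2 and 492.4 FPKM in NC-1, and 391.3 and 380.1 FPKM in miR-4711-5p. MET made up 22.5% to 25.3% of this sum in the control libraries and 14.1% and 14.5% with miR-4711-5p. DDR1 went from 24.9% to 26.2% in the controls to 20.3% and 21.3%. EPHA2, at 22.8% to 26.0% in the controls, reached 34.3% and 33.8%, and AXL, at 8.51% to 10.7%, reached 14.8% and 13.7%. These are shares of a sum that itself fell, so a higher share need not mean a higher level.

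**Figure D3:**
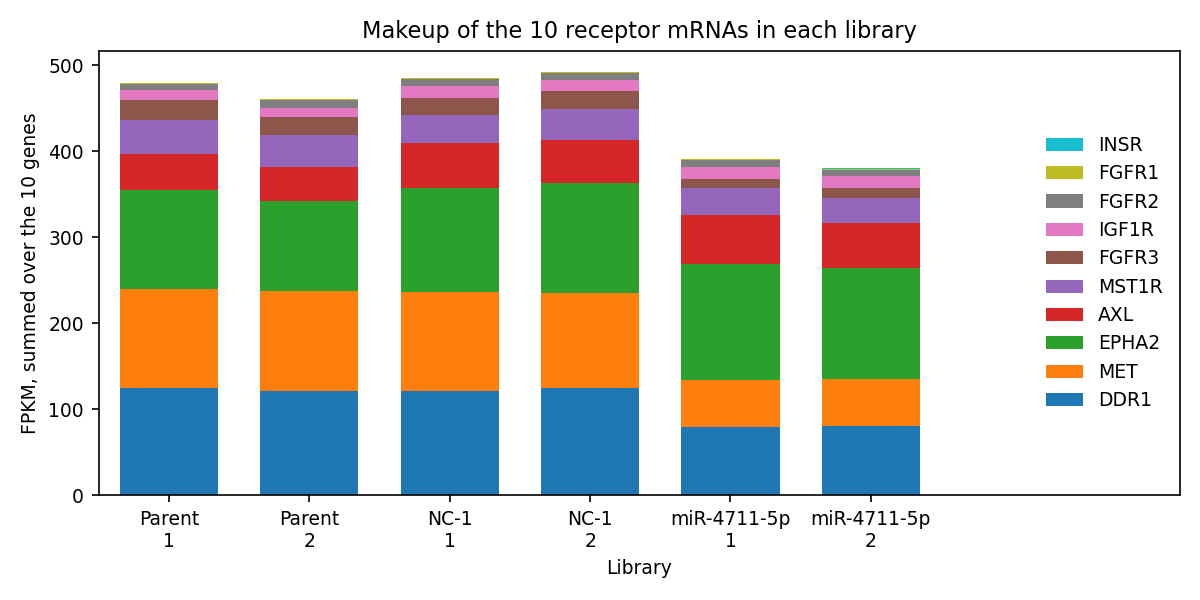
Stacked FPKM of the 10 receptors in each of the 6 libraries, with 1 bar per library. The bars for miR-4711-5p are shorter, at 391.3 and 380.1 FPKM, mainly through the MET and DDR1 segments, while the EPHA2 and AXL segments are not smaller.

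The order of the receptors changed as well. In Parent it was DDR1, MET, EPHA2, AXL, MST1R, FGFR3, IGF1R, FGFR2, FGFR1 and INSR, with overlapping libraries between MET and EPHA2 and between AXL and MST1R. In NC-1 EPHA2 and DDR1 overlapped at the top and MET came next. In miR-4711-5p EPHA2 led, DDR1 followed, MET and AXL overlapped, and IGF1R had passed FGFR3. The ratio of AXL to MET was 0.336 to 0.451 in the control libraries, and 1.05 and 0.947 with miR-4711-5p. The ratio of MET to EPHA2 was 0.866 to 1.11 in the controls, and 0.411 and 0.429 with miR-4711-5p. These ratios were taken within each library, so they do not depend on how the libraries were scaled.

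Seed sites of the guide were counted as a description. In the longest annotated 3′ UTR, 4 of the 10 receptors had an 8mer, 7mer-m8 or 7mer-A1 site (MET, IGF1R, INSR and DDR1), beside 18.4% of the 11189 tested genes with a 3′ UTR. The count includes MET, which the study chose partly for having a seed site, so the MET site is not read as evidence. With 8mer and 7mer-m8 sites alone, DDR1 was left, beside 11.9% of genes. Receptor 3′ UTRs ranged from 305 nt in MST1R to 7088 nt in IGF1R, beside a median of 1492 nt over the tested genes. IGF1R held 7mer-A1 sites at positions 1029 and 2742 of its 3′ UTR. With miR-4711-5p it was called higher against Parent but not against NC-1 (log2 fold change 0.12, limma adjusted p = 0.178). NC-1 itself was above Parent (log2 fold change 0.26, limma adjusted p = 0.0230). INSR held a 7mer-A1 site at position 2874 of 4791 nt. FGFR3, whose level fell nearly as far as that of MET, had no guide site of 6 bases or more in any annotated coding transcript, and neither did AXL. EPHA2 carried the 8mers shown above and a 7mer-A1 site at chr1:16456835-16456841, all in its coding sequence, and was not lower. DDR1 had further 7mer-m8 sites in its coding sequence at chr6:30866722-30866728 and chr6:30866978-30866984, and in the 5′ UTR of 1 of its transcripts at chr6:30856331-30856337. MST1R had a 7mer-A1 site in its coding sequence at chr3:49924981-49924987. A match of letters is a description and not a shown site of binding. The absence of a match says only that these letters are not in the annotated transcripts. Whether sites went with the changes in level was not tested.

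The antisense strand of the duplex, as the full complement of the guide, has its own seed, and was searched the same way. It is shown because IGF1R and INSR held 3′ UTR sites of both strands.

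antisense strand: cUCAUGUCuucuggccugaugca

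In 3′ UTRs, its 8mer was present in IGF1R at position 522 and in INSR at position 1971, and its 7mer-m8 in IGF1R at position 1622 and in INSR at position 1086. EPHA2 held a 6mer at position 335. In coding sequences, DDR1 held an 8mer of this strand, MET, MST1R, EPHA2, IGF1R, INSR and FGFR2 held 7mer-A1 sites, FGFR1 and FGFR3 held 6mers only, and AXL had no match. Over the tested genes, 22.0% had a site of this strand in the longest 3′ UTR.

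**Figure D4:**
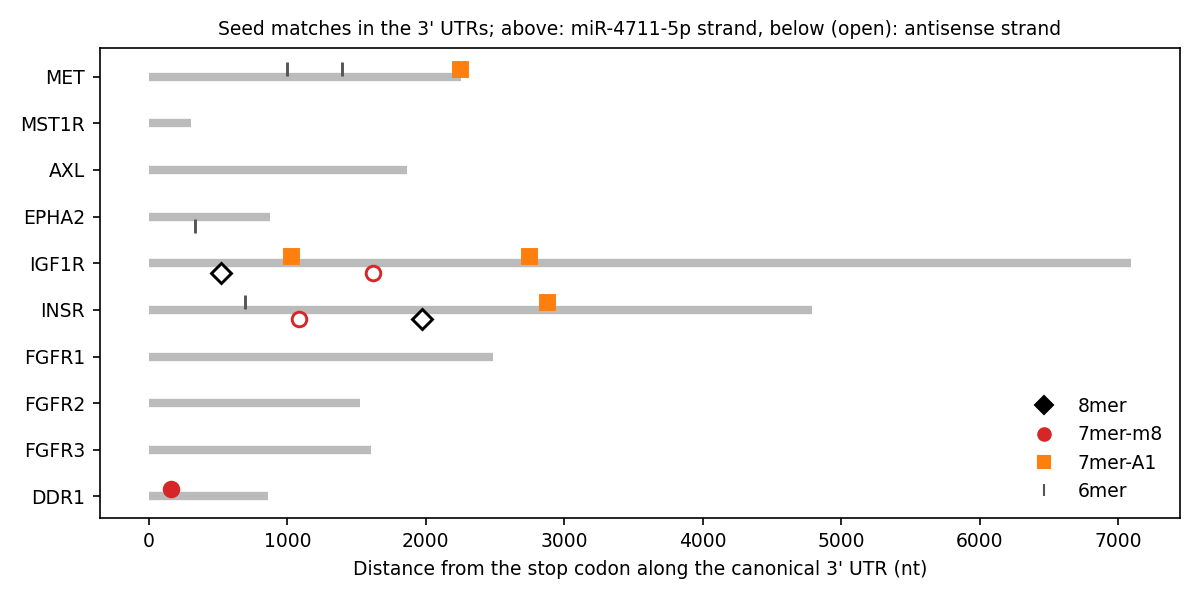
Canonical 3′ UTRs of the 10 receptors as grey bars drawn to scale in nt from the stop codon, with seed matches of the miR-4711-5p strand above each bar and of the antisense strand, in open symbols, below it. The MET 7mer-A1 match is at the end of the 3′ UTR, the DDR1 7mer-m8 match is near the stop codon, and MST1R, AXL, FGFR1, FGFR2 and FGFR3 have no match in this region.

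By a fixed measure of likeness, the smallest Euclidean distance over the 6 libraries between log2(FPKM + 1) values, each minus the Parent mean of its gene, the profiles nearest to MET among 6605 genes with at least 10 FPKM in Parent were those of PORCN, PPL, FAM173B, SULF2 and KCNN4. Their distances were 0.098 to 0.128. PORCN, an acyltransferase of WNT ligands, had group means of 69.5 FPKM in Parent, 66.5 FPKM in NC-1 and 32.9 FPKM in miR-4711-5p. SULF2, an enzyme that removes sulfate from heparan sulfate at the cell surface, had group means of 120.3, 116.4 and 55.2 FPKM in the same order. KCNN4, a calcium-activated potassium channel, was at 57.7, 55.1 and 27.3 FPKM.

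Other genes of the receptor pathways were counted in lists grouped by known function. The lists were written with earlier results of these data known, so they are not a blind choice. Their counts stand beside the same shares of all genes as before, 18.7% higher and 24.7% lower against Parent, and 18.4% higher and 21.2% lower against NC-1. Of 48 other receptor tyrosine kinases, 17 passed the filter. Against Parent 4 rose and 2 fell, and against NC-1 5 rose and 4 fell, with a median log2 fold change of 0.06 and 0.04. The 6 calls against Parent went to 3 without Parent replicate 2 or without miR-4711-5p replicate 2, and the 9 against NC-1 to 5 and 4 without miR-4711-5p replicate 1 and 2. With each library scaled to the same FPKM sum, the 6 went to 10. Those called the same way against both controls were all receptors of B-type ephrins. EPHB6, which lacks kinase activity, rose from 28.6 ± 2.31 FPKM in Parent and 37.9 ± 0.02 FPKM in NC-1 to 47.2 ± 1.06 FPKM (SD, n = 2 each). EPHB4 fell from 73.9 ± 4.43 and 75.7 ± 2.62 FPKM to 61.3 ± 1.78 FPKM. EPHB3 fell from 8.61 ± 0.60 and 9.17 ± 0.50 FPKM to 6.88 ± 0.89 FPKM.

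Of 35 ligands of the 10 receptors, 8 passed the filter, and none was called the same way against both controls. HGF, the ligand of MET, was listed at 0 in 5 of the 6 libraries and at 0.062 FPKM in miR-4711-5p replicate 1. IGF1 was listed at 0 in all 6. GAS6, the ligand of AXL, was measured at 8.12 and 7.94 FPKM in Parent, 6.28 and 6.79 FPKM in NC-1 and 6.35 and 6.55 FPKM in miR-4711-5p. GAS6 was named after its values were seen. It fell against Parent (log2 fold change -0.28, limma adjusted p = 0.0127) while the difference from NC-1 was -0.02 (limma adjusted p = 0.870). The 3 ligands called against Parent, GAS6 included, went to 0 without either miR-4711-5p replicate and to 1 without either Parent replicate.

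HGF and macrophage-stimulating protein are secreted as inactive precursors that serine proteases cleave. Of 11 genes for such proteases and their inhibitors, 8 were tested. Against Parent 5 rose and 2 fell, and against NC-1 5 rose and 1 fell. PLAU, the urokinase plasminogen activator, was at 187 ± 1.96 FPKM in Parent, 345 ± 8.19 FPKM in NC-1 and 411 ± 1.55 FPKM in miR-4711-5p (SD, n = 2 each), so most of its rise over Parent was present in NC-1. PRSS8, the membrane-anchored protease prostasin, had means of 45.4, 54.5 and 62.6 FPKM in the same order. TMPRSS4, a transmembrane serine protease, fell from 83.0 ± 1.54 and 79.9 ± 2.50 FPKM to 45.0 ± 2.24 FPKM. The inhibitors of these proteases, SPINT1 and SPINT2, were named after their values were seen. SPINT1 rose (log2 fold change 0.35 with limma adjusted p = 0.00108 against Parent, and 0.26 with limma adjusted p = 0.00422 against NC-1). SPINT2, the more abundant, had means of 526.7, 495.6 and 461.8 FPKM in Parent, NC-1 and miR-4711-5p. It fell against Parent (log2 fold change -0.19, limma adjusted p = 0.00591), and its difference from NC-1 was -0.10 (limma adjusted p = 0.0651).

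Insulin-like growth factors are held in the medium by binding proteins. Of 9 genes, the binding proteins and IGF2R, 5 were tested, and in each comparison with miR-4711-5p 1 rose and 2 fell. With equal FPKM sums, the 3 calls against Parent went to 5. IGFBP5 rose from 6.99 ± 0.21 FPKM in Parent and 7.11 ± 0.28 FPKM in NC-1 to 17.9 ± 0.07 FPKM. IGFBP6 fell from 594 ± 36.8 and 461 ± 31.4 FPKM to 331 ± 3.89 FPKM, and IGFBP2 from 45.0 ± 3.72 and 39.6 ± 3.23 FPKM to 29.2 ± 1.12 FPKM. The fall of IGFBP6 against Parent was thus partly present in NC-1, whose own log2 fold change against Parent was -0.37 (limma adjusted p = 0.00669).

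Among 17 co-receptors and partners, which present ligands to the receptors or join them in the membrane, 15 were tested. This list had the lowest median of all lists with more than 1 tested gene, -0.38 against Parent and -0.27 against NC-1. It was written with earlier results of these data known, so its median and counts are a description and not read as evidence. Against each control 9 fell, and all 9 fell against both, while 2 rose against Parent and 3 against NC-1. LRP1, an endocytic receptor, fell from 26.9 ± 0.18 FPKM in Parent and 29.7 ± 0.14 FPKM in NC-1 to 11.6 ± 0.13 FPKM. NRP2, a co-receptor of semaphorins and growth factors, fell from 24.8 ± 0.44 and 22.0 ± 0.62 FPKM to 10.7 ± 0.63 FPKM. FGFBP1, a carrier of FGF ligands, fell from 206 ± 4.20 and 246 ± 16.1 FPKM to 96.7 ± 2.36 FPKM. The 9 also held CD44, a co-receptor of MET, and ITGA6 and ITGB4, the subunits of an integrin that binds laminin. Much of the fall of ITGA6 was present in NC-1, with means of 189 FPKM in Parent, 119 FPKM in NC-1 and 90.4 FPKM in miR-4711-5p, and a log2 fold change of -0.67 for NC-1 against Parent (limma adjusted p = 0.000616). For CD44, limma gave a log2 fold change of -0.34 with adjusted p = 0.00237 relative to Parent, and of -0.27 with adjusted p = 0.00671 relative to NC-1. These 3 were named after their values were seen.

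Of 28 adaptors and signal relay genes tested, 5 rose and 8 fell against Parent, and 4 rose and 10 fell against NC-1, with medians of 0.01 and -0.07. These counts were close to the shares over all genes against Parent. The 13 calls against Parent went to 8 without Parent replicate 2 or without miR-4711-5p replicate 1, and the 14 against NC-1 to 9 without NC-1 replicate 2, and to 5 and 8 without miR-4711-5p replicate 1 and 2. PLCG1, a phospholipase that binds activated receptors, rose from 18.2 ± 0.06 and 20.4 ± 0.76 FPKM to 26.4 ± 0.39 FPKM. SRC, a cytoplasmic tyrosine kinase, fell from 60.4 ± 2.52 and 59.8 ± 2.53 FPKM to 48.7 ± 0.08 FPKM, and the adaptor GRB7 from 9.97 ± 0.26 and 8.66 ± 0.48 FPKM to 7.02 ± 0.13 FPKM. All 31 genes of receptor turnover and phosphatases were tested, of which 11 rose and 5 fell against Parent, and 7 rose and 8 fell against NC-1. The 16 calls against Parent went to 8 without either miR-4711-5p replicate and to 10 without Parent replicate 1, and the 15 against NC-1 to 9 without either miR-4711-5p replicate. PTPRK, a receptor-type tyrosine phosphatase, rose from 34.5 ± 0.12 and 33.4 ± 0.46 FPKM to 48.9 ± 0.70 FPKM. NEDD4, a ubiquitin ligase, fell from 16.6 ± 0.25 and 19.1 ± 0.72 FPKM to 12.3 ± 0.31 FPKM, and SORL1, a sorting receptor, from 9.55 ± 0.17 and 9.82 ± 0.02 FPKM to 6.45 ± 0.41 FPKM.

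**Figure D5:**
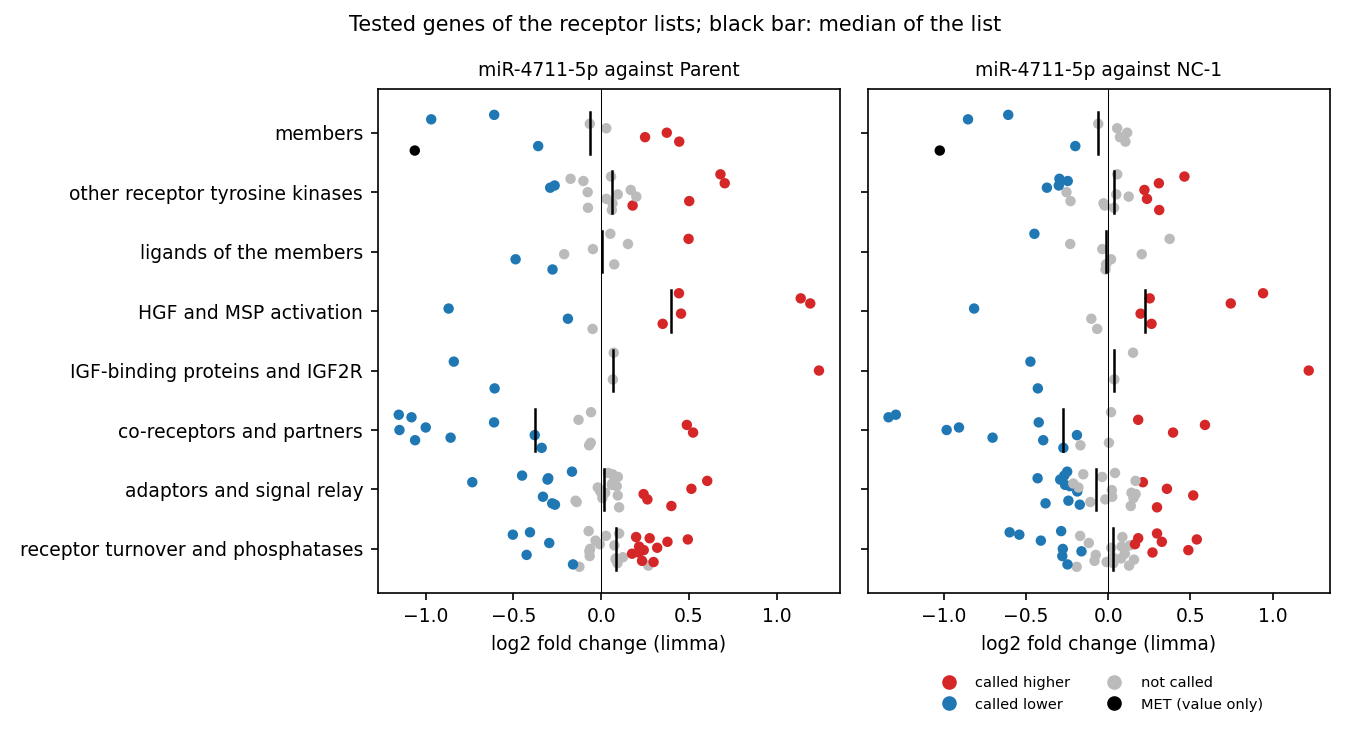
Log2 fold changes from limma of the tested genes of each list, against Parent on the left and against NC-1 on the right, with 1 point per gene, red for called higher, blue for called lower, grey for not called and black for MET, given as a value only. The black bar is the median of a list. Genes of the co-receptor list lie mostly left of 0 in both panels, and the other lists hold genes on both sides.

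Epithelial identity markers also moved with the treatment, and their part in the receptor results was not tested. Of 8, all tested, 2 rose and 3 fell against Parent, beside 18.7% and 24.7% of all genes. Against NC-1 4 rose and 4 fell, beside 18.4% and 21.2% of all genes. CDH1, the adhesion molecule E-cadherin, was measured at 114.2 and 116.5 FPKM in Parent, 109.4 and 109.6 FPKM in NC-1 and 28.3 and 30.9 FPKM in miR-4711-5p. MUC1 fell from 30.4 ± 0.23 and 24.4 ± 3.65 FPKM to 15.1 ± 0.70 FPKM, and KRT19 from 1629 ± 99.5 and 1274 ± 28.3 FPKM to 901 ± 15.2 FPKM. CLDN4, a claudin of tight junctions, rose from 114.9 ± 6.90 and 139.1 ± 0.97 FPKM to 190.4 ± 1.72 FPKM. KRT18, a keratin of simple epithelium, rose from 1093 ± 32.5 and 998 ± 50.7 FPKM to 1251 ± 0.20 FPKM. KRT7 and KRT8, also keratins of simple epithelium, had log2 fold changes of -0.09 each against Parent, which did not pass the test (limma adjusted p = 0.144 and 0.233). Against NC-1 they were -0.17 and 0.25 (limma adjusted p = 0.0224 and 0.0104).

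How the libraries are scaled moves small differences. With each library scaled to the same FPKM sum, an alternative chosen after seeing the data, the median log2 fold change of all genes went from -0.01 to 0.11 against Parent, from 0.00 to 0.05 against NC-1 and from -0.01 to 0.06 for NC-1 against Parent. The genes called higher and lower then numbered 4010 and 1776 against Parent in place of 2255 and 2975, 2923 and 2083 against NC-1 in place of 2214 and 2549, and 2327 and 1000 for NC-1 against Parent in place of 1456 and 1823. FGFR3 and DDR1 were lower and called against both controls under this scaling too. The log2 difference of MET from Parent, as a description, was then -0.92.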

How the data were processed

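The RNA-seq libraries were prepared by the authors from BxPC-3 RNA with a stranded mRNA kit and read in single-end mode. The time of 36 h is from the study's results text and supplementary figure legends, not the labels. The submitters' processing notes name hg19, TopHat2 2.1.1, Bowtie2 2.3.5.1, SAMtools 1.2, Cufflinks 2.2.1 and Cuffdiff. The study's methods give other versions of the mapping tools and name Cuffnorm for FPKM, so which tool and versions made the deposited values was not settled. The authors deposited FPKM values, normalized for exon length and library size, with 26255 symbols per library. The gene annotation and the strand and normalization options are not given in the sources used here. A gene value in FPKM adds over isoforms, so a shift between isoforms can move it.

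FPKM are not counts. The 12040 genes whose mean reached 1 FPKM were tested on log2(FPKM + 1) with limma 3.58.1 in R 4.3.3 (eBayes with trend, two-sided), the 3 groups in a common fit with 3 residual and 4.15 prior degrees of freedom. Adjusted p-values are over all genes. On this scale the fold changes of low genes come out too small, and fold changes of means use no pseudocount. An exact permutation test of 2 against 2 libraries cannot go below p = 0.333. The script was tested on simulated data. Tables were made with Python 3.11.15, numpy 2.4.6 and pandas 2.3.3.

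For sites, 10599 tested symbols matched GENCODE directly and 596 through an older symbol. The receptors and the lists were chosen with earlier results of these data known. All 10 receptors are named, and from each list up to 3 genes with the largest change against Parent, called against both controls in the same direction, with at least 5 FPKM in the mean of at least 1 group. For MET, the 5 nearest profiles are named. GAS6, SPINT1, SPINT2, CD44, ITGA6, ITGB4, CLDN4, KRT18, HGF, IGF1, KRT7, KRT8 and EPCAM lie outside this rule. Alternatives covered the pseudocount, the filter, the scaling, the groups in the fit, the trend, the replicate number as a block, a fold minimum and each library left out.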

Additional observations from a re-analysis of the deposited data

How the results depend on the processing

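Across 14 alternative analyses, FGFR3 and DDR1 kept their direction and their call against Parent and against NC-1. Their log2 fold changes against Parent were -1.04 to -0.84 and -0.63 to -0.47. The alternatives are not independent checks. Median-of-ratios factors were 1.006 to 1.007 in every library, so that scaling was nearly the main fit. Changes of the filter, the trend, the replicate block or the groups in the fit left log2 fold changes of the tested receptors unchanged. So did leaving out a library of a group not compared. The difference of MET from Parent, given as a description, ranged from -1.07 to -0.92. Of 375 values of the tested receptors under the alternatives, 335 kept direction and call, 23 lost the call, 2 gained it and 15 changed sign, all of them uncalled. These values include MET. Its calls, which are not read as evidence, were held in 14 of 14 alternatives against each control. A minimum fold of 1.5 in addition left 3 receptors against Parent (FGFR3 and DDR1, with MET counted) and 0 for NC-1 against Parent, and 1490, 1295 and 501 genes against Parent, against NC-1 and for NC-1 against Parent. Without a filter 3192, 2841 and 843 genes were called, 5 receptors against Parent, where MST1R and EPHA2 lost their calls, and 0 receptors for NC-1 against Parent. With only the groups compared in the fit, 1 receptor was called for NC-1 against Parent. Leaving out each library in turn gave 3164 to 5135 genes against Parent, 2815 to 4639 against NC-1 and 1355 to 2296 for NC-1 against Parent, where 0 to 2 receptors were called. A lone library was assumed to vary like the other groups. With 8mer and 7mer-m8 sites alone, 1 receptor had a seed site in its longest 3′ UTR. Under equal FPKM sums, the sign changed for FGFR2 against Parent (0.059) and, for NC-1 against Parent, for MET (0.046), FGFR1 (0.018), FGFR2 (0.071) and DDR1 (0.083).

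Leaving out libraries, FGFR1 ranged from -0.035 to 0.093 against Parent, from -0.0055 to 0.12 against NC-1 and from -0.090 to 0.038 for NC-1 against Parent. FGFR2 ranged from -0.14 to 0.0099 against Parent and from -0.079 to 0.070 for NC-1 against Parent, and DDR1 from -0.025 to 0.021 for NC-1 against Parent. The causes were not tested. FGFR1 has no value under the filter of 5 FPKM. Replicate numbers did not pair the libraries (correlations of same-numbered deviations 0.06, 0.00 and -0.01). With the replicate block, 4983, 4564 and 2864 genes and 7, 3 and 2 receptors were called, and MST1R lost its call against NC-1 (limma adjusted p = 0.0726). Over the 7 pathway lists, 87 of 315 counts moved by more than 1.5 times. The cell type marker lists were not rerun under the alternatives. Depth in reads is unknown.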
